A study of Mus musculus with 32 samples.

Results

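RNA from the cell body fraction of untreated hippocampal neurons was compared between Mettl3 KO and WT cultures. The comparison was defined by its labels: the 2 RNA-seq libraries Mettl3_KO_Soma_Ctrl and the 2 libraries WT_Soma_Ctrl, which are 4 of the 16 RNA-seq libraries and of the 32 samples of the series. The study grew mouse hippocampal neurons on microporous membranes, so that cell bodies stayed on top of the membrane (soma) while neurites grew through its pores, and it measured RNA levels and m6A sites with and without KCl.

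Both groups had the same handling. Pooled pups of a litter, of both sexes, gave each culture, and the duplicate cultures came from different litters. All cultures received an AAV that carries Cre and dTomato behind the neuronal hSyn promoter (50000 vg per cell on day 7 in vitro), and on day 14 they were silenced for 16 h with tetrodotoxin (1 µM) plus D-AP5 (50 µM) and collected on day 15. The KO cultures (genotype Mettl3-/-) came from the strain labelled Mettl3Flox/Flox and the WT cultures from C57BL/6. Genotype, mouse line and litter therefore cannot be told apart in this comparison. Because hSyn drives Cre in neurons, other cells of the culture could keep Mettl3. The soma fraction can also hold neurites that did not pass a pore.

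METTL3 is the catalytic subunit of the complex that methylates adenosines of mRNA at N6 (m6A) while the RNA is made. METTL14, WTAP, VIRMA and ZC3H13 are other parts of that complex, FTO and ALKBH5 can remove the mark, and YTH proteins bind it. In the cytoplasm m6A is best known for shortening the life of an mRNA, and in neurons it has been tied to transport and local translation. The comparison asks which RNAs differ in level in the cell body when the methyltransferase is deleted.

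The m6A sites of the series come from DART-seq, in which a cytidine deaminase fused to an m6A-binding domain turns the C next to a methylated A into U, so that a site is read as the share of C-to-U (C2U) reads. Windows of 21 bases around sites are shown here for RNAs that the results turn on: the deleted gene, the 2 YTH readers that were called and the immediate early gene Fos. Sequences are from GRCm38, on the RNA's strand, with the A and the edited C in capitals.

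Mettl3 chr14:52296125-52296145 (- strand, coding sequence): gattgagagACtgtcccctgg
Mettl3 chr14:52296727-52296747 (- strand, coding sequence): tgggtgaagACtaatcagctg
Mettl3 chr14:52296155-52296175 (- strand, coding sequence): cagtcataaACcagatgaaat
Ythdf1 chr2:180911526-180911546 (- strand, coding sequence): tcaagcataACatggacattg
Ythdf3 chr3:16204872-16204892 (+ strand, coding sequence): gctggaaaaACtaaaggccat
Fos chr12:85473888-85473908 (+ strand, 5′UTR): ccaaccgcgACtgcagcgagc

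The C2U level, averaged by the authors over libraries, was 10.8%, 2.20% and 1.11% at the 3 sites of Mettl3, 6.44% in Ythdf1, 12.96% in Ythdf3 and 2.04% in Fos. The depth at a site is unknown, so these levels carry no error. Of all 18231 listed sites, 53.7% read GAC and 46.3% AAC at the edited C on the RNA strand, which is the motif the authors required of a site.

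Depth was 41530537 and 48835145 fragments for KO replicates 1 and 2, and 71394235 and 56990252 for WT replicates 1 and 2. The WT libraries were close to each other and the KO libraries were not. Over 23750 genes, 7 genes differed 2-fold or more between the WT libraries, against 4111 genes (17.3%) between the KO libraries. For these counts a small constant was added to each CPM, which shrinks the ratios of genes at low levels. KO replicate 2 stood apart: Pearson's r of log2 CPM across genes was between 0.948 and 0.950 with each of the other libraries, against 0.997 between the WT libraries and 0.980 to 0.982 between KO replicate 1 and WT. Genes with less than 1000 bases of exon held 4.34% of its fragments, against 8.59% to 11.0% in the others.

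**Figure D1:**
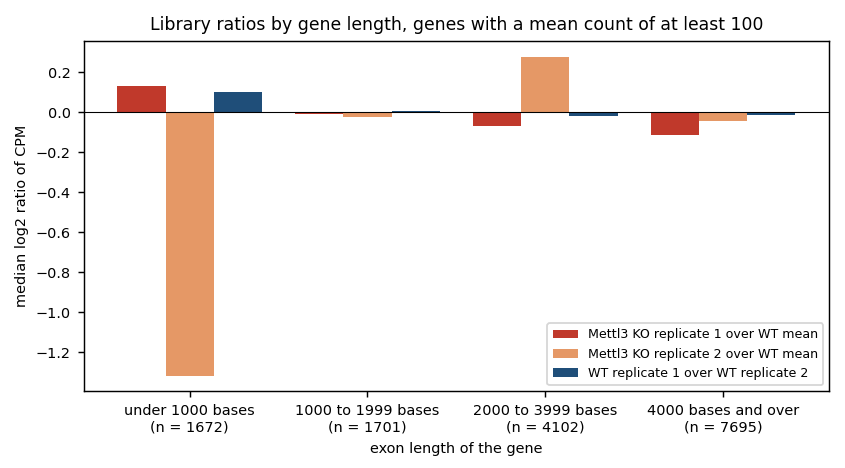
Median log2 ratio of TMM-scaled CPM (y axis) for genes of 4 exon length classes with a mean count from 100 up (x axis, number of genes under each class), for each KO library over the WT mean and for the WT libraries over each other. In KO replicate 2 these genes had a median of −1.32 under 1000 bases, and in KO replicate 1 of 0.13. Over all 4191 tested genes under 1000 bases the medians were −0.35 and 0.09. A small constant was added to each CPM, which shrinks ratios at low counts, so the medians with and without low-count genes are not directly comparable.

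The length difference touched whole gene families. The cytosolic ribosomal proteins, which are encoded by short mRNAs, summed to 14202 and 4194 CPM in KO replicates 1 and 2 and to 12601 and 11502 CPM in WT. Their median log2 change was −0.50 with 0 of 85 tested genes called, but it was 0.27 without KO replicate 2 and −2.47 without KO replicate 1. Of 90 nuclear-encoded respiratory chain genes 3 were called lower, beside 5.46% of all genes. Their median of −0.68 showed the same split (0.05 and −2.50). These family values were set by 1 library and give no direction for the genotype. Single RNAs could be split as widely: the nuclear lncRNA Malat1 had 7167 and 1246 CPM in KO and 3836 and 3863 CPM in WT. Values of the genes that the results turn on are therefore given per library.

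With edgeR, 0 of 23750 genes passed an adjusted p of 0.05 together with a 1.5-fold change, and the smallest adjusted p was 0.346. At an unadjusted p of at most 0.05 the same edgeR test called 1458 genes higher (6.14% of genes tested) and 1296 lower (5.46%) in KO, 11.6% in all. DESeq2, which the study also used, called 231 genes higher (0.973%) and 161 lower (0.678%) at an adjusted p on the same libraries, 1.65% in all. Of these, 230 and 161 were also unadjusted edgeR calls. The paper reported more genes in each direction from its own DESeq2 fit of soma, whose set of libraries it does not state. Below, "called" means the unadjusted edgeR call. Every such call had an adjusted p of 0.346 or more, so a large part of the calls may be without a difference. Log2 changes are KO over WT with a standard error (SE). Without KO replicate 1 or 2, when the spread rested on the close WT pair, edgeR called 4098 and 2451 genes higher and 5184 and 2422 lower at an adjusted p. Without WT replicate 1 or 2, the unadjusted calls fell to 240 and 192 higher and 196 and 196 lower, and at most 2 members of any gene list below were then called in a direction. Pooled fits below are those that share 1 estimate of the spread over the 8 soma libraries or over all 16.

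Fold differences in this paragraph were taken with the small constant added to each CPM, and those given for single genes below are plain CPM ratios. Among the genes called higher, 133 had KO libraries 2-fold or more apart, and in 112 of them replicate 2 was the farther from WT. Among those called lower, 40 had KO libraries that far apart. In 876 genes called higher and 919 called lower, both KO libraries were at least 1.5-fold from the WT mean and outside the WT range, a rule that 3.79% and 4.25% of genes met in each direction (8.04% in all). Both KO libraries lay above both WT libraries in 23.7% of genes tested and below them in 24.9%, or 48.6% in all.

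Mettl3 (ENSMUSG00000022160, GRCm38 chr14:52294841-52305128, - strand) had 9.75 and 12.9 CPM in the KO libraries and 19.1 and 18.4 CPM in WT. Both KO libraries were below both WT libraries, with a log2 change of −0.73 (SE 0.25, unadjusted p 0.0394), so that 411 and 624 fragments of the gene remained. The counts cover all exons of the gene, so loss of the deleted exon alone cannot be read from them. DESeq2 gave Mettl3 an adjusted p of 0.518. From its own assays the paper reported almost full loss of METTL3 protein, loss of reads over the deleted exon in soma, and less m6A.

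Calls in the m6A machinery are to be read beside 6.14% of all genes called higher and 5.46% lower. Of 11 writer genes, 1 was called higher and 1 (Mettl3) lower, with a median log2 change of −0.10 (0.05 without KO replicate 1) beside 0.01 over all genes tested. The one called higher was Mettl16, a separate methyltransferase that acts on U6 snRNA, at 51.5 and 64.8 CPM against 38.0 and 36.1 CPM (log2 0.65, SE 0.22). Mettl14, the partner subunit of METTL3, had 13.98 and 25.7 CPM in KO, on either side of the 16.1 and 17.4 CPM of WT. Zc3h13 had 67.4 and 69.3 CPM against 71.1 and 65.5 CPM.

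The cytoplasmic readers differed among themselves. Ythdf3, whose single site is printed above, had 22.3 and 20.97 CPM in KO against 53.6 and 54.7 CPM in WT (log2 −1.32, SE 0.20, unadjusted p 0.00189). Both KO libraries lay far below WT and near each other. Ythdf3 was also lower in KCl-treated soma (log2 −0.77) and in neurites (log2 −1.29). Ythdf1 was called higher, at 37.6 and 74.3 CPM against 25.97 and 26.3 CPM (log2 1.10, SE 0.38), with most of the difference in KO replicate 2. Ythdf2 had 109 and 148 CPM against 103 CPM in each WT library and was not called. Of 13 readers and demethylases, those 2 were the calls, beside 6.14% of all genes called higher and 5.46% lower. Fto and Alkbh5 had log2 changes of −0.12 and −0.11 and were not called.

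The genes named next were chosen, Mettl3 apart, by size of change or smallest p among 1582 called genes whose mean count reached 100 and whose KO libraries both lay on 1 side of both WT libraries. Of the 32 genes given here, Mettl3 included, 31 had a DESeq2 adjusted p of at most 0.05. Their values in this contrast chose them and are given as a description.

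**Figure D2:**
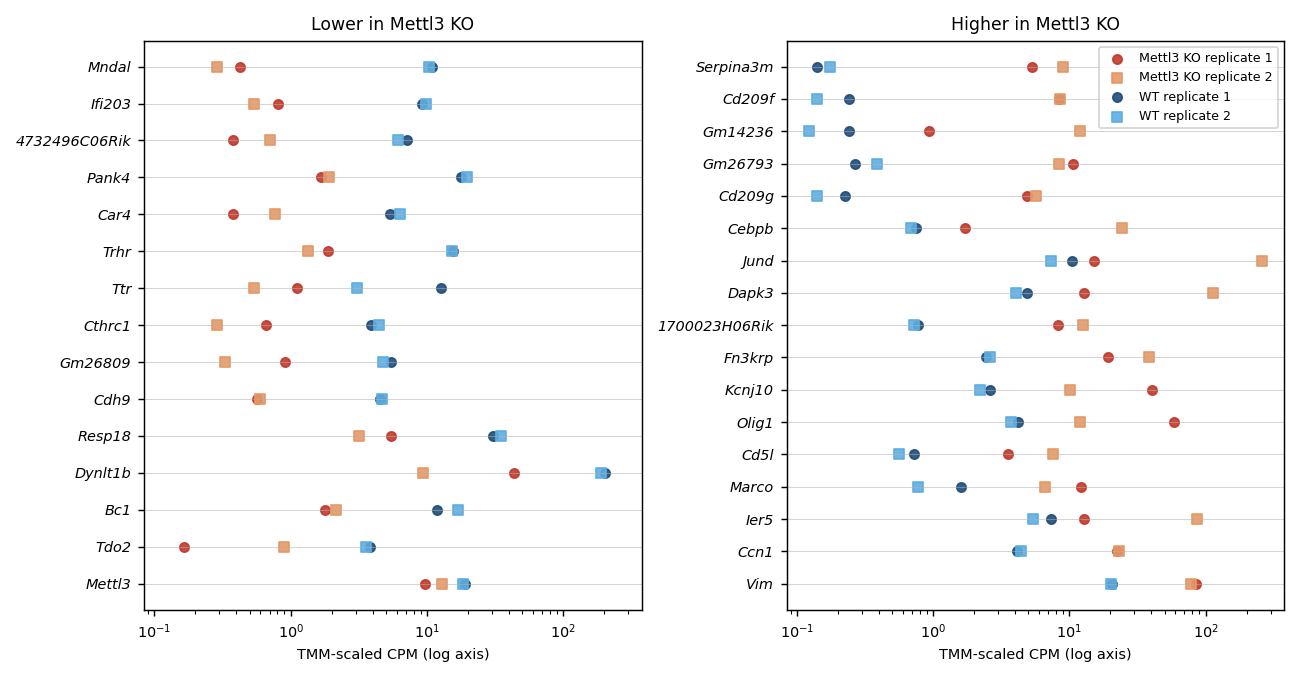
TMM-scaled CPM on a log axis (x axis) of the 32 named genes (y axis) in each of the 4 libraries. Mndal stood at 0.427 and 0.289 CPM in KO against 11.0 and 10.4 CPM in WT, and Jund, Dapk3 and Cebpb show KO replicate 2 far from KO replicate 1.

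A group of large differences lay together on chromosome 1, among the HIN-200 genes, which encode a family of interferon-inducible nuclear and cytosolic proteins. Mndal had 0.427 and 0.289 CPM in KO against 11.0 and 10.4 CPM (log2 −4.90, SE 0.35). Ifi203, which overlaps it on the same strand, had 0.807 and 0.537 CPM against 9.20 and 9.84 CPM (log2 −3.82, SE 0.34). Ifi211 (0.237 and 0.248 against 1.00 and 0.738 CPM), Ifi204 (0.237 and 0.124 against 0.536 and 0.422 CPM) and Ifi205 (0.0475 and 0.145 against 0.748 and 0.650 CPM) were called lower too. Ifi202b went the other way, with 23 and 39 fragments in KO against 4 and 3 in WT (log2 3.58, SE 0.48). These are related genes, Mndal and Ifi203 overlap, and multi-mapping reads were counted, so how the change divides among them is uncertain. This neighbourhood was chosen after its values were seen.

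**Figure D3:**
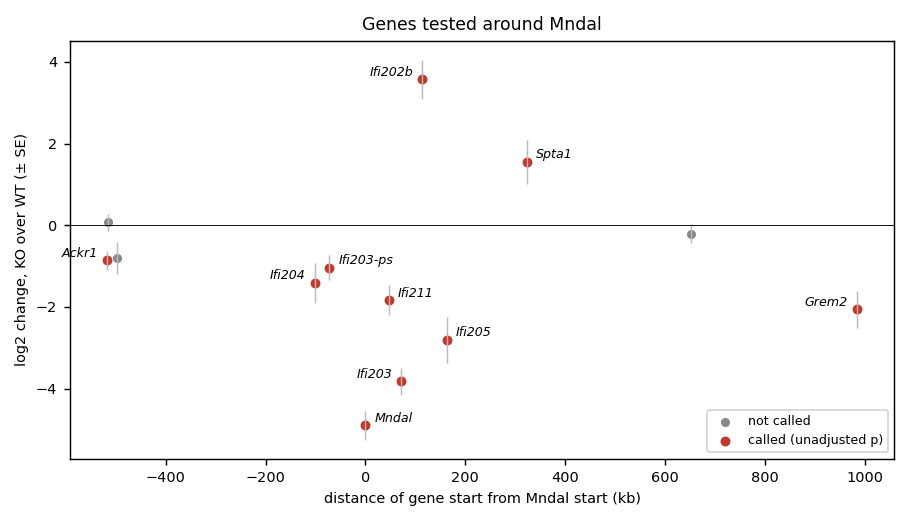
Log2 change with SE (y axis) of every tested gene by the distance of its start from that of Mndal in kb (x axis), called genes in red. Ifi202b stands at 3.58 beside HIN-200 genes that were called lower.

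The interferon response as a list did not share that direction. Of 29 tested members 5 were called higher and 3 lower (beside 6.14% of all genes higher and 5.46% lower), with a median of 0.43. In the pooled fits of edgeR 3 and 2 were called higher and 2 lower in each. Those higher included the antigen presentation genes H2-K1 (28.8 and 31.1 against 14.3 and 17.7 CPM) and H2-D1 (108 and 136 against 60.1 and 68.1 CPM). Those lower were Mx1 (0.356 and 0.558 against 1.42 and 1.44 CPM), Ifi35 and Stat2.

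Other large falls had KO libraries less than 2-fold apart. Pank4, of the pantothenate kinase family, had 1.66 and 1.92 CPM against 17.7 and 19.7 CPM (chr4:154964123-154980938, log2 −3.38, SE 0.26). Trhr, the receptor for thyrotropin-releasing hormone, had 1.87 and 1.34 CPM against 15.7 and 15.4 CPM (log2 −3.27, SE 0.30). Cdh9, a cadherin of hippocampal synapses, had 0.570 and 0.599 CPM against 4.56 and 4.68 CPM (log2 −2.98, SE 0.28). The libraries of each genotype lay close together in these 3 genes and the groups were far apart. Resp18, a neuroendocrine protein, had 5.48 and 3.18 CPM against 30.9 and 34.8 CPM (log2 −2.92).

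Further large falls had KO libraries more than 2-fold apart. Tdo2, the tryptophan dioxygenase, had 0.166 and 0.889 CPM against 3.82 and 3.55 CPM. Cthrc1, a secreted collagen-like protein, had 0.665 and 0.289 CPM against 3.89 and 4.43 CPM, and Car4, a membrane carbonic anhydrase, 0.380 and 0.765 CPM against 5.37 and 6.33 CPM. In these 3 both KO libraries still lay far below WT. Ttr, the thyroxine carrier made by choroid plexus, had 1.12 and 0.537 CPM in KO against 12.7 and 3.09 CPM in WT, and it was not lower in KCl-treated soma (log2 0.52). Dynlt1b, a dynein light chain with near-identical neighbouring copies and an exon length of 771 bases, had 43.7 and 9.38 CPM against 205 and 190 CPM.

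Several large rises were held by both KO libraries, and 3 of the genes were nearly silent in WT. Cd209f and Cd209g, neighbouring C-type lectin genes of the DC-SIGN family on chromosome 8, had 8.42 and 8.53 CPM against 0.240 and 0.141 CPM (log2 5.45, SE 0.39) and 4.89 and 5.70 CPM against 0.226 and 0.141 CPM (log2 4.82, SE 0.39). The protease inhibitor gene Serpina3m, also in a family of close copies, had 5.29 and 9.01 CPM against 0.141 and 0.176 CPM (log2 5.48, SE 0.46). Fn3krp, which encodes a kinase that removes sugars from proteins, had 19.1 and 38.7 CPM against 2.45 and 2.60 CPM (chr11:121421401-121431288, log2 3.51, SE 0.44). In each of these 4 genes both KO libraries were at least 7.56-fold above the WT mean, and the log2 change was between 3.67 and 5.72 in KCl-treated soma and neurites.

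Ccn1, a matrix protein gene induced by growth factors, had 22.3 and 23.2 CPM against 4.12 and 4.45 CPM (log2 2.41, SE 0.23). Vim, the intermediate filament of astrocytes and other non-neuronal cells, had 84.5 and 78.4 CPM against 20.6 and 20.4 CPM (log2 1.99, SE 0.20). In both, the KO libraries lay close together and far above WT. Cd5l and Marco, which macrophages express, had 3.56 and 7.58 against 0.719 and 0.563 CPM, and 12.2 and 6.65 against 1.59 and 0.773 CPM.

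A further set of large rises came, in untreated soma, mainly from 1 KO library. Jund, a transcription factor of the AP-1 family, had 15.2 CPM in KO replicate 1 and 259 CPM in KO replicate 2, against 10.5 and 7.38 CPM. Cebpb, another leucine zipper factor, had 1.71 and 24.2 CPM against 0.748 and 0.686 CPM. Dapk3, a kinase, and Ier5, an immediate early gene, had KO libraries 8.83-fold and 6.795-fold apart, both higher in replicate 2. Kcnj10, the glial Kir4.1 channel, and Olig1, a factor of the oligodendrocyte lineage, were uneven the other way, at 40.4 and 10.2 against 2.60 and 2.21 CPM, and at 58.5 and 11.96 against 4.16 and 3.73 CPM. Without KO replicate 2 the log2 change of Jund was 0.78, and without KO replicate 1 it was 4.85. In untreated neurites both KO libraries lay above both WT libraries in each of these genes. There KO replicate 1 was the higher for Cebpb (12.1 and 4.44 against 0.594 and 0.750 CPM), Jund, Dapk3 and Ier5. In KCl-treated soma Jund had no such rise (24.1 and 45.5 against 34.4 and 30.3 CPM).

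Long noncoding RNAs gave differences of like size. The neuronal RNA Bc1, a short transcript carried into dendrites and related in sequence to a repeat family, had 1.80 and 2.15 CPM against 11.9 and 16.96 CPM (chr7:144914470-144914637, log2 −2.86, SE 0.32). Gm26793, which lies nearby on the same chromosome, had 10.6 and 8.43 CPM against 0.268 and 0.387 CPM (log2 4.86, SE 0.37). 1700023H06Rik was higher (8.24 and 12.6 against 0.776 and 0.721 CPM), and 4732496C06Rik (0.380 and 0.703 against 7.18 and 6.15 CPM) and Gm26809 (0.902 and 0.331 against 5.47 and 4.76 CPM) were lower. Gm14236 had 0.926 and 12.1 CPM against 0.240 and 0.123 CPM, and so rested on replicate 2.

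Neuron markers were not called, and most astrocyte markers were called higher in KO. Of 15 neuron markers 0 were called in either direction, with a median of −0.14, and their summed level was 4852 and 6341 CPM in KO against 5726 and 5980 CPM in WT. Of 11 astrocyte markers 7 were called higher and 0 lower (beside 6.14% of all genes higher and 5.46% lower), with a median of 0.94. That count was 2 with the 8 soma libraries, 1 with 16 libraries and 1 with DESeq2 on 16 libraries, while the median stayed between 0.77 and 1.04 over the alternatives. Gfap, the astrocyte intermediate filament, had 1227 and 1203 CPM against 578 and 590 CPM (log2 1.06, SE 0.21). Sox9, an astrocyte transcription factor, had 133 and 137 CPM against 61.3 and 62.6 CPM (log2 1.12, SE 0.20). The water channel gene Aqp4 had 60.4 and 67.7 CPM against 30.5 and 34.3 CPM, and the gap junction gene Gja1 had 48.8 and 48.5 CPM against 23.7 and 26.97 CPM. Slc1a2, the glutamate transporter, was not called (384 and 246 against 260 and 261 CPM), and Hes5 had 2.25 and 7.77 against 12.5 and 11.7 CPM. The summed astrocyte level was 2776 and 2290 CPM against 1336 and 1359 CPM. In RNA from the soma fraction of a culture with several cell types, more cells of a type and more RNA per cell cannot be told apart.

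Markers of other cells were at lower levels, and their calls are to be read beside the 6.14% of all genes called higher and 5.46% called lower. Of 9 tested microglial markers 5 were called higher (0 with the 8 soma libraries, with 16 libraries and with DESeq2 on 16), among them the complement genes C1qa (3.23 and 3.02 against 1.41 and 0.984 CPM) and C1qb (5.93 and 6.12 against 2.53 and 1.78 CPM), and the sum was 21.5 and 26.1 against 17.3 and 14.9 CPM. Itgam, the tenth, had 4, 4, 4 and 2 fragments. Of 9 oligodendrocyte lineage markers 2 were called higher, Olig1 and Cnp, and of 14 fibroblast, mural and endothelial markers 1 (Vtn) was called higher and 1 (Kdr) lower. Of 8 ependymal and choroid plexus markers Foxj1 and Aqp1 were called higher and Ttr lower. Of 9 dividing cell markers Top2a, Ccnb1 and Aurkb were called higher, at up to 1.76 CPM, and 0 in the pooled fits. The part of these cells in the other differences was not tested.

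Several activity-induced genes were called although every culture was silenced. Of 25 members 7 were called higher and 2 lower, beside 6.14% and 5.46% of all genes. Fos, the AP-1 subunit whose site is printed above, had 41.3 and 68.4 CPM against 14.7 and 14.2 CPM (log2 1.93, SE 0.32). Npas4, a factor induced by calcium entry in neurons, had 13.1 and 13.6 CPM against 5.73 and 5.38 CPM (log2 1.26, SE 0.23). Egr1, Egr2, Nr4a1, Dusp1 and Gadd45b were the other 5 called higher. Egr3 (12.4 and 13.5 against 20.5 and 22.5 CPM) and Pcsk1, a prohormone convertase (3.01 and 3.39 against 7.63 and 7.52 CPM), were lower. In the pooled fits of edgeR 3 and 2 were called higher and 1 lower in each. The median of the list was 0.40, but 0.00 without KO replicate 2. In KCl-treated soma 0 of the 25 were called higher and 2 lower.

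Of 18 tested integrated stress response genes, 7 were called higher and 0 lower (beside 6.14% of all genes higher and 5.46% lower), with a median of 0.47. In each pooled fit of edgeR 3 were called higher. Atf4, the central factor of that response, had 59.1 and 96.8 CPM against 41.5 and 37.4 CPM (log2 0.98, SE 0.31). Atf3 had 7.12 and 6.798 CPM against 2.91 and 2.83 CPM, and the amino acid transporter subunit Slc7a5 had 110 and 135 CPM against 55.2 and 47.2 CPM. Asns, a usual target of ATF4, was not called (176 and 276 against 242 and 251 CPM). Of 18 p53 targets 3 were called higher (Fas, Tnfrsf10b and Gtse1) and 0 lower. Of 18 chaperones of the unfolded protein and heat shock responses, Pdia4 was called higher and Sdf2l1 lower, a share near that of all genes.

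Of 26 GABA receptor and interneuron genes, 9 were called lower and 0 higher (beside 5.46% of all genes lower and 6.14% higher), with a median of −0.52. In each pooled fit 5 were called lower. Gabra2, a GABAA receptor subunit gene with a known C57BL/6J allele of low expression, had 59.6 and 79.5 CPM against 189 and 167 CPM (log2 −1.36, SE 0.25). Gabra3, Gabra4, Gabrb2, Gabrg1, the peptide gene Cck and the calcium buffer Calb1 were among the other calls. Calb1 had 34.1 and 114 CPM against 262 and 277 CPM. The GABA-synthesizing enzymes Gad1 and Gad2 were not called (341 and 468 against 350 and 380 CPM, and 116 and 134 against 134 and 139 CPM).

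Of 21 glutamate receptor genes, 6 were called lower and 1 higher (beside 5.46% and 6.14% of all genes), with a median of −0.47. DESeq2 called 3 lower, as did edgeR with a length trend removed. Grm2, a presynaptic metabotropic receptor, had 12.3 and 23.3 CPM against 60.7 and 67.7 CPM (log2 −1.85, SE 0.38). Gria2, the AMPA receptor subunit that blocks calcium, had 348 and 253 CPM against 578 and 555 CPM (log2 −0.91, SE 0.25). Gria3, Grik4 and Grm7 were called lower as well. Grik5 was the one called higher, at 25.6 CPM in KO replicate 1 and 176 CPM in KO replicate 2 against 18.8 and 15.2 CPM.

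Synaptic structure genes were mostly not called. The counts of this paragraph are to be read beside 6.14% of all genes called higher and 5.46% lower. Of 22 postsynaptic scaffolds and kinases 1 was called, Dlg2 (PSD-93), at 50.0 and 68.9 CPM against 127 and 141 CPM (log2 −1.17, SE 0.26). Camk2a, the calcium-dependent kinase of spines, had 1246 and 1535 CPM against 1651 and 1902 CPM and was not called. Of 25 presynaptic vesicle genes 5 were called lower and 0 higher (3 lower in the pooled fits), with a median of −0.15. Sncg, Sv2b, Cplx2 and Syp were among them. Cplx2, a regulator of vesicle fusion, had 518 and 685 CPM against 1363 and 1466 CPM (log2 −1.23, SE 0.25). Of 21 cholesterol synthesis genes 4 were called lower and 0 higher, and their median of −0.47 was −0.02 without KO replicate 2. Msmo1, a sterol oxidase, had 72.7 and 75.5 CPM against 143 and 161 CPM.

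**Figure D4:**
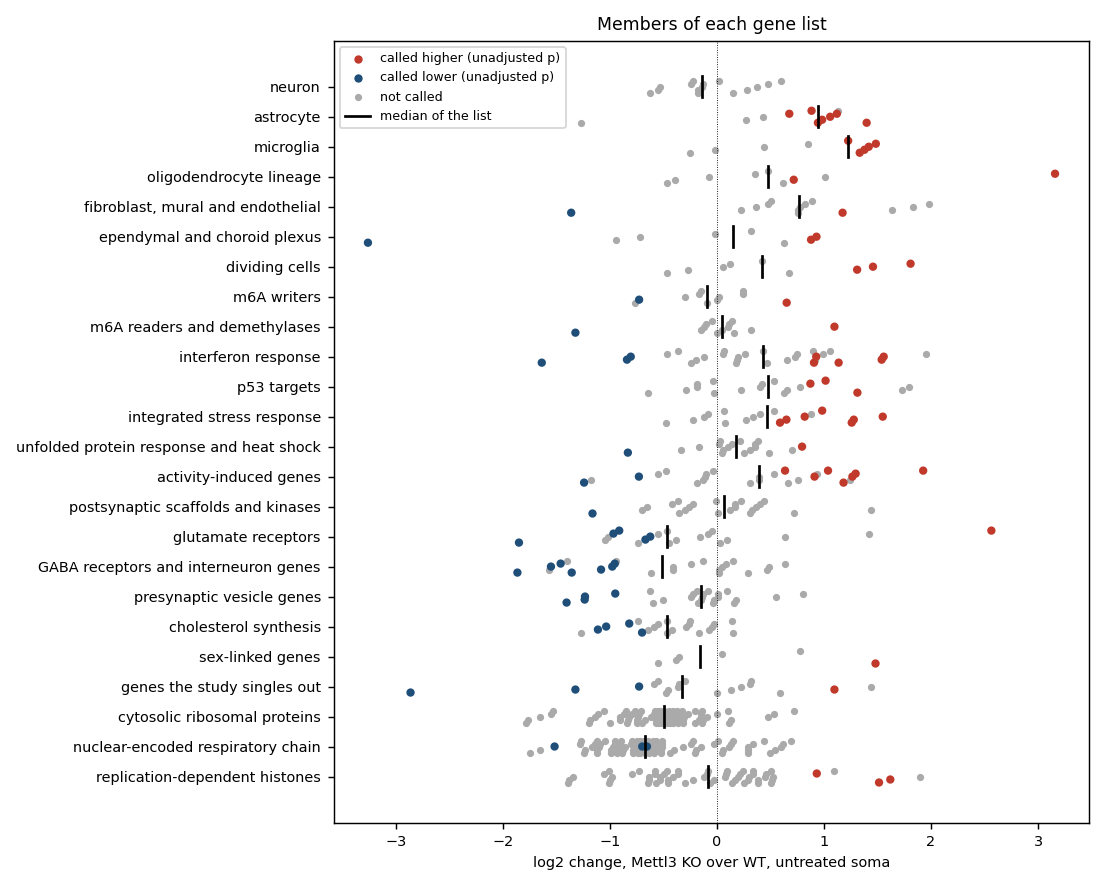
Log2 change of KO over WT (x axis) for members of 24 gene lists (y axis), with the median over all tested members of each list as a bar (a few members not reported here are not drawn). Astrocyte and microglial markers sit to the right of 0 and GABA receptor genes to the left, while ribosomal and respiratory genes sit left of 0 with almost no call.

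Of 58 replication-dependent histone genes 3 were called higher and 0 lower, beside 6.14% and 5.46% of all genes. Their median of −0.09 ran from −1.42 to 0.23 over the alternatives.

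The RNAs that the study singles out were mixed. Of 18, 3 were called lower (Mettl3, Ythdf3 and Bc1) and 1 higher (Ythdf1), beside 5.46% and 6.14% of all genes. Map2, the dendritic microtubule protein, had 394 and 315 CPM against 511 and 528 CPM (log2 −0.55, SE 0.23). Shank1, a scaffold, had 52.6 and 226 CPM against 56.2 and 46.5 CPM. Norad, listed under another name in the annotation, had 846 and 1077 CPM against 1415 and 1485 CPM (log2 −0.59). None of these 3 was called. The list was chosen by the study partly on these libraries, so its count is no independent evidence.

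Among the sex-linked genes Xist was called higher, at 71.3 and 27.3 CPM against 16.6 and 18.8 CPM. The 4 Y-linked genes had log2 changes between −0.55 and 0.05 and were not called. The litters were pools of both sexes.

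Gene properties gave small differences. With 0, 1, 2 to 4 and 5 or more DART-seq sites, 12.5%, 9.56%, 7.85% and 9.42% of genes were called, beside 11.6% of all, and the median log2 changes were 0.01, −0.03, 0.04 and −0.01. Among genes whose mean count reached 1000 these shares were 9.38%, 7.51%, 6.86% and 8.88%, and the medians −0.12, −0.05, 0.03 and −0.01. In KO replicate 1 the medians of the classes in that subset were between −0.13 and −0.09, and in KO replicate 2 between −0.11 and 0.15.

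By length, 7.23% of genes under 1000 bases were called, against 12.9% from 1000 to below 2000, 12.9% from 2000 to below 4000 and 12.1% from 4000 bases. Genes of 2000 to below 4000 bases had more calls upward (8.76% against 4.10% lower) and those of 4000 bases and over more calls downward (7.47% against 4.66% higher). By biotype, 951 protein-coding genes were called higher and 968 lower. Beside 6.14% of all genes called higher and 5.46% lower, 20 of 160 sense intronic transcripts (12.5%) were called higher and 0 lower. Of 1472 provisional transcript models (TEC) 145 were higher (9.85%) and 40 lower (2.72%). The median log2 ratios of these 2 biotypes to WT were 0.38 and 0.33 in KO replicate 1 but 0.07 and 0.01 in KO replicate 2. By chromosome the share called ran from 7.14% (Y, 14 genes) to 15.4% (chromosome 12). Within 10 Mb of Mettl3 on chromosome 14, 37 of 254 genes (14.6%) were called, 21 of them higher and 16 lower. Supt16, which starts 134 kb below Mettl3, was called higher at 34.5 and 31.8 CPM against 18.7 and 19.8 CPM, and Tox4, which overlaps the end of Mettl3, was not called (206 and 184 against 176 and 191 CPM).

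The same contrast was fitted in the 4 libraries of KCl-treated soma and in the 4 of untreated neurites. These use other libraries, but the KCl cultures came from the same litters and the neurites from the same inserts, so a difference of line or litter would recur in them. In KCl-treated soma 2036 genes were called higher (8.47%) and 1356 lower (5.64%), and in neurites 1350 higher (6.19%) and 1441 lower (6.61%). At an edgeR adjusted p these were 0 in KCl-treated soma, and 38 higher (0.174%) and 98 lower (0.449%) in neurites. Of genes called higher in untreated soma and tested in both, 700 were also called higher with KCl (50.5% of the untreated and 37.7% of the KCl calls), and 514 in neurites (41.0% and 38.3%). Of those called lower, 476 were shared with KCl (37.8% and 36.4%) and 576 with neurites (47.0% and 40.5%). Opposite calls were 5 with KCl and 3 in neurites. Of 21350 genes tested in all 3 contrasts, 341 were called higher in each and 329 lower in each. Of the 32 named genes, 30 had the same sign with KCl and 32 in neurites. These genes were chosen, Mettl3 apart, in untreated soma, and no share of equal signs over all genes stands beside these counts.

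**Figure D5:**
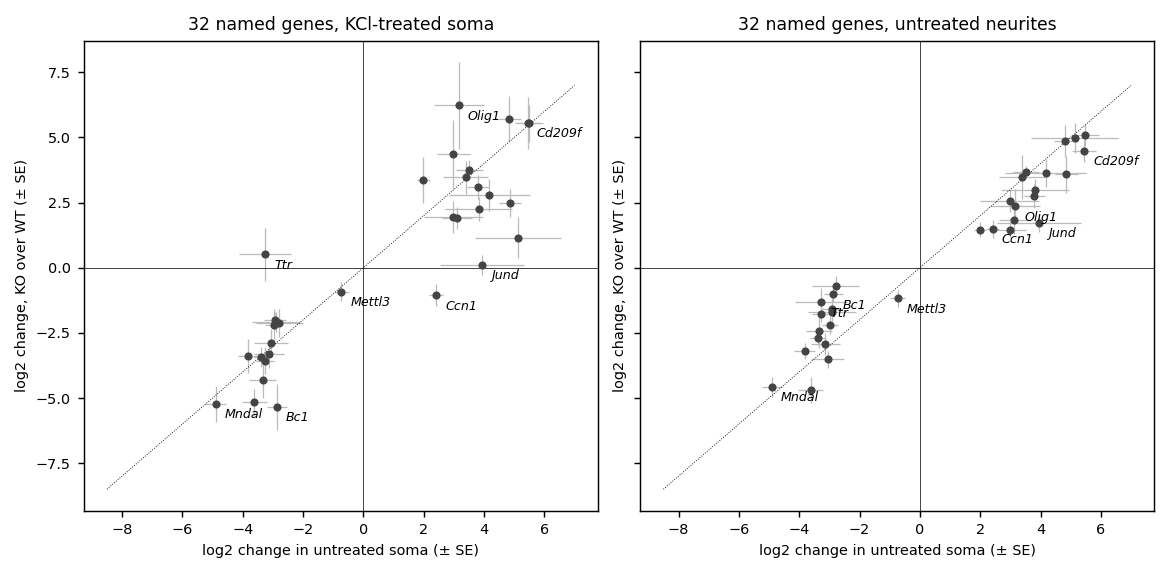
Log2 change with SE of the 32 named genes in untreated soma (x axis) against that in KCl-treated soma or untreated neurites (y axis), dotted line at equal change. Genes were chosen on the x axis, Ccn1 and Ttr lie across 0 with KCl, and 0 lie across it in neurites.

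One library of the KCl contrast stood apart. KCl-treated KO replicate 1 had 10045 CPM of astrocyte, 4674 CPM of oligodendrocyte lineage and 489 CPM of microglial markers, against 2671, 139 and 29.1 CPM in KCl-treated KO replicate 2. Its neuron markers summed to 2600 CPM, against 6934 to 7137 CPM in the 3 other libraries. Glial genes of the KCl contrast, such as Olig1 with 626 and 14.4 CPM in KO against 3.76 and 4.76 CPM, were highest in it.

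Tests of the difference between contrasts called 0 genes at an edgeR adjusted p, for KCl (24058 genes, smallest adjusted p 0.985) and for compartment (22942 genes, smallest adjusted p 0.993). Unadjusted, 586 genes (2.44%) and 437 genes (1.9%) were called, and DESeq2 called 1 gene in each at an adjusted p (0.00416% and 0.00436%). That the genotype difference of a gene was alike in soma and neurites or with and without KCl does not follow from these counts.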

How the data were processed

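RNA-seq libraries were made from 50 ng of RNA. The authors trimmed reads with Flexbar, aligned them to mm10 with STAR 2.7.7a and counted fragments per gene with featureCounts 2.0.1 on the Ensembl annotation of GRCm38, paired-end, without strand and with multi-mapping reads, so near-identical genes share counts. The deposited values are raw counts of 55573 genes. The authors' DART-seq table gives each site's C2U fraction, averaged over libraries, after sites were kept only in an RAC motif. Their tables of DESeq2 comparisons of neurites with soma were not used. Depth was between 41530537 and 71394235 fragments. The 37 mitochondrially encoded genes had 0 counts in every library.

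The 23750 genes whose mean count reached 10 were scaled by TMM and tested with the quasi-likelihood F-test of edgeR 4.0.16 (R 4.3.3) with Benjamini-Hochberg adjustment. CPM are TMM-scaled. The SE is the log2 change divided by the square root of F. A call needs p of at most 0.05 and a 1.5-fold change. Since 0 genes passed at an adjusted p, gene calls rest on unadjusted p. Named genes were, at a mean count from 100 up with all KO libraries on 1 side of WT, the 12 largest rises and falls among protein-coding genes, the 5 smallest p in each direction, the 3 largest rises and falls of lncRNAs, and Mettl3. Called members of gene lists could be named too. Results of a few genes are not reported here, and counts and medians of lists include them. Members not called, the neighbours of Mndal and Mettl3, and list members given as contrasts were chosen after their values were seen. The members and lists were chosen with earlier results of these data known.

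DESeq2 1.42.0, other scalings, filters and sample sets, and leaving out each library were alternatives. The removal of a GC and length trend was added after the data were seen. The fit was tested on simulated data. Coordinates are from GENCODE M21 (GRCm38), which matched 55480 genes by Ensembl ID. Of 5643 RNAs with sites, 5512 matched a tested gene by symbol. P-values measure the spread between cultures of different litters.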

Additional observations from a re-analysis of the deposited data

Results flagged for a closer look

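For 4 genes named above, both KO libraries lay above both WT libraries in untreated soma and below both in KCl-treated soma or neurites. The genes were picked for this reversal, so the unadjusted p-values below only describe it and lend it no support. These tests had no block for shared litters or inserts. After adjustment over all genes edgeR gave 0.985 for each test of KCl and 0.993 for the test of compartment, so none passed. Ccn1, with a log2 change of 2.41 in untreated soma, had −1.06 with KCl (186 and 89.5 against 288 and 284 CPM, unadjusted edgeR p 0.000115 for the difference). Dusp1, a phosphatase of MAP kinases, had 1.30 untreated and −1.06 with KCl (191 and 641 against 933 and 806 CPM, p 0.0142). The water channel Aqp1 had 0.93 untreated and −0.75 with KCl (0.831 and 0.838 against 1.32 and 1.49 CPM, p 0.0116). Vtn, which pericytes express, had 1.17 untreated, −0.95 with KCl (2.17 and 0.430 against 2.79 and 2.31 CPM, p 0.0447) and −2.34 in neurites (0.370 and 0.394 against 1.63 and 2.28 CPM, p 0.000146). KCl-treated KO replicate 1 is the library with high glial markers, and its part in these values was not tested.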

How the results depend on the processing

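With 2 cultures a group, the number of calls depended on how the spread was estimated. At an adjusted p, 0 genes were called higher and 0 lower by edgeR on the 4 libraries, 1 and 2 on the 8 soma libraries, 15 and 29 on all 16 libraries, and 83 and 71 with no filter on low counts. DESeq2 called 231 and 161, and 188 and 225 on 16 libraries. Leaving out 1 library gave 0 to 4098 higher and 0 to 5184 lower: 4098 and 5184 without KO replicate 1, 2451 and 2422 without KO replicate 2, and 0 without either WT library. The lone library of a group is then assumed to vary like the other pair. Unadjusted calls (1458 and 1296) were 2364 higher with no filter, 846 and 758 at a mean count of at least 100, and ran from 192 to 4394 higher and 196 to 5540 lower when 1 library was left out (4394 and 5540 without KO replicate 1, 3181 and 2801 without KO replicate 2, 240 and 196 without WT replicate 1, 192 and 196 without WT replicate 2). The tests of KCl and of compartment called 1 gene each by DESeq2 at an adjusted p, and 270 and 158 unadjusted at a mean count of at least 100. RLE scaling, a length trend or a GC and length trend removed, and leaving out short genes moved none of the counts over all genes by over 1.5 times, but counts within small lists moved more (6 to 3 glutamate receptor genes lower, 1 to 3 fibroblast, mural and endothelial genes higher, with a length trend removed). Of the 111 named or listed genes called, 0 changed sign under the alternatives that tested them (98 were tested at a mean count from 100 up and 107 without short genes). No longer called were 41 with the 8 soma libraries, 49 with 16 libraries, 43 with DESeq2 on 16 libraries, 24 with the replicate block, and 76 and 77 without WT replicate 1 or 2. Medians of 8 lists changed sign under an alternative: ependymal, writer, reader, activity-induced, postsynaptic, ribosomal, respiratory and histone genes.

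The replicate numbers do not pair KO with WT cultures, which came from different litters. Across 23750 genes, the difference between replicates correlated weakly between genotypes (r = 0.14). A fit with the replicate number as a block called 0 genes at an adjusted p and 1093 higher and 1095 lower unadjusted. A block within genotype, for the tests of KCl and compartment, called 856 and 347 genes unadjusted.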
